A study of Mus musculus with 6 samples.

Results

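The Bcl2 family apoptosis regulators were followed in surface IgM-positive B cells of mouse bone marrow. The rule took 10 gene names, Bcl2, Bcl2l1, Mcl1, Bcl2l11, Bmf, Pmaip1, Bbc3, Bax, Bak1 and Bid, each as the row with the highest mean, and found all 10 among the 22098 gene names of the deposited table. Libraries came from 3 genotypes on a C57BL/6 background, with 2 libraries each, all from mice 6 weeks old: Ikaros_ZnF1-/- (ZnF1 mutant), Ikaros_ZnF4-/- (ZnF4 mutant) and wild type. Ikaros, the product of Ikzf1, is a DNA-binding zinc finger protein of lymphocytes, and the mutants lack its finger 1 or its finger 4, so the comparisons ask how RNA levels depend on each finger. The labels do not say in which cells the mutations act or how many animals gave each library.

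Apoptosis through mitochondria is set by the balance of this family. Anti-apoptotic members such as Mcl1, Bcl2 and Bcl2l1 hold the pore-forming effectors Bax and Bak1 in check, and BH3-only proteins, named for the one homology domain they keep, release or activate the effectors. Immature B cells of the marrow depend on this balance, since cells with autoreactive receptors can be deleted there. Protein activity of the family is largely set after transcription, so RNA levels describe only part of it.

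Promoters of Bmf, Bcl2l1 and Mcl1 are shown because Ikaros binds DNA at sites with the core GGGAA. Of these members, only Bmf passed the test in a comparison below. RefSeq windows of 300 bases on GRCm38.p6, from 250 bases before to 50 after a start site, matched 9 of the 10 members by symbol, with 16 windows in all; Pmaip1 had no entry. Each is printed 5′ to 3′ on the strand of the gene, and capitals mark GGGAA or its reverse complement TTCCC. The first is the window of Bmf whose start lies 1 base from the start that GENCODE gives for the deposited transcript (chr2:118549637-118549936, minus strand), and the second is that of 1 of its 2 other starts, shown because it holds the most matches of the 3 (chr2:118544538-118544837, minus strand). The third and the fourth belong to anti-apoptotic members, Bcl2l1 (chr2:152831679-152831978, minus strand) and Mcl1 (chr3:95658471-95658770, plus strand).
Bmf, start of the deposited transcript: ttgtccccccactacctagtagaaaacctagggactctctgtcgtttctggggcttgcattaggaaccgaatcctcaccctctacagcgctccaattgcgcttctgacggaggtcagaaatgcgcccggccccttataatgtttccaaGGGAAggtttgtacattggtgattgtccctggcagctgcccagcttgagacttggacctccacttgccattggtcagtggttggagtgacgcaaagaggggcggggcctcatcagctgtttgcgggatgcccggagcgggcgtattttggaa
Bmf, another start: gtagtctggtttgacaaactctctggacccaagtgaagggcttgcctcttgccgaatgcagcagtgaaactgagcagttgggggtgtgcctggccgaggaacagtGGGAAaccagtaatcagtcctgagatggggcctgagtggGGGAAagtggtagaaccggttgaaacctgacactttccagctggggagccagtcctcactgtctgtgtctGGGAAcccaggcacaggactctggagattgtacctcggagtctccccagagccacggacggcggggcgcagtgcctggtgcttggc
Bcl2l1: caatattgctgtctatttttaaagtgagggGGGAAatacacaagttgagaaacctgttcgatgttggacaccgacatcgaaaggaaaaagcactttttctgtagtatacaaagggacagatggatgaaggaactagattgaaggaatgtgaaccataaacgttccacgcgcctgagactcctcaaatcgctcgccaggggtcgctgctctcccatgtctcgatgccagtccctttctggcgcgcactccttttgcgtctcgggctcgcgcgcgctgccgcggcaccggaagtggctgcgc
Mcl1: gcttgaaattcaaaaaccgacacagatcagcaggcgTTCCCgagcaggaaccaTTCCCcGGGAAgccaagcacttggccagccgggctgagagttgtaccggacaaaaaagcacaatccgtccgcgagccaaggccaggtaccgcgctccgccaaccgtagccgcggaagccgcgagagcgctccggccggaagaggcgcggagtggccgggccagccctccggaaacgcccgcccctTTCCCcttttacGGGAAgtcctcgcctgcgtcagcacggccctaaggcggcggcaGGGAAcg

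The Bmf window at the deposited start holds 1 match to GGGAA on either strand, the other printed Bmf window 3, Bcl2l1 1 and Mcl1 6. The third Bmf window (chr2:118547550-118547849, minus strand), which is not printed, holds 1. Bcl2l1 also has windows of other starts, not printed, that hold 0 and 2. Of the 9 members, 6 had a match in the window nearest to their deposited transcript (Bcl2l1, Mcl1, Bmf, Bbc3, Bax and Bak1), and Bcl2, Bcl2l11 and Bid had none. Of all 32851 windows of this length, 62.7% held a match. The longer TGGGAA, which contains GGGAA, was found in 25.6% of all windows; it occurs in the second Bmf window, at 2 sites, and in the Bax window, at 1 site. The forkhead (Foxo) core GTAAACA was searched on both strands as well, since Foxo factors are known regulators of Bcl2l11; it occurs in 3.65% of all windows and at 1 site in a window of Bcl2l11 and 1 in a window of another start of Bbc3. These are matches of letters only, and binding was not measured.

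Values are RPKM, which corrects read numbers for transcript length and library size. It does not correct for how well reads map to each gene, so comparisons of levels between genes are approximate. Read depth cannot be read from the table, so no counting error is given. Differences are on the log2(RPKM + 0.5) scale, from a limma fit to all 6 libraries, and calls were made where the adjusted p was under 0.05. The adjustment covered 10322 tested genes, all with a mean of at least 1 RPKM. All 10 members were tested. The labels do not tie libraries to separate animals, so p-values rest on the spread between these libraries. The fit estimates that spread for each gene with help from the other tested genes.

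All libraries had a B cell profile: the 6 B cell markers summed to 5087 and 4482 RPKM in ZnF1 mutants, 4502 and 5319 in ZnF4 mutants, and 5382 and 5398 in wild type. Libraries also differed in ways the labels do not give. The 19 granulocyte and monocyte markers summed to 1577 and 8561 RPKM in ZnF1 mutants, 1928 and 2132 in ZnF4 mutants, and 514 and 815 in wild type, and none of them was at 0 in any library. All ZnF1 libraries exceeded all wild-type libraries for 18 of the 19, and all ZnF4 libraries did for 16. The 8 pro-B and pre-B cell markers summed to 63.2 and 75.2 RPKM in ZnF1 mutants, 188 and 158 in ZnF4 mutants, and 41.3 and 60.8 in wild type. Igll1 made up most of the ZnF4 sums, at 130.4 and 121.3 RPKM. Both ZnF4 libraries exceeded both wild-type libraries for 3 of the 8, Igll1, Vpreb1 and Kit. They lay below them for 4, Rag1, Rag2, Dntt and Vpreb2. For the ZnF1 libraries these counts were 4 above and 2 below. The 6 plasma cell markers in the table summed to 128 and 111 RPKM in ZnF1 mutants, 204 and 189 in ZnF4 mutants, and 604 and 122 in wild type, with Tnfrsf17 at 0 in a library. The 10 erythroid markers summed to 153 and 986 RPKM in ZnF1 mutants, 252 and 380 in ZnF4 mutants, and 240 and 254 in wild type. The 8 T cell markers summed to 15.4 to 22.2 RPKM in all libraries, mostly through Lck, with Trat1 at 0 in all but ZnF1 replicate 2. Both ZnF1 libraries exceeded both wild-type libraries for 4 of the 8 (Cd3d, Cd3e, Cd3g and Cd8a, all at or below 1.5 RPKM). They lay below them for 1, Lck. For the ZnF4 libraries these counts were 2 and 1. Xist and Ddx3y mark replicate 2 of each mutant as male and the other 4 libraries, both wild-type ones included, as female. The libraries of each mutant therefore came from different animals, while the wild-type libraries cannot be told apart by sex. In such bulk samples, fewer cells that express a gene and less RNA per cell cannot be told apart.

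Only Bmf and Pmaip1, both BH3-only genes, passed the test in any comparison, and the other 8 members passed in none. Bmf was lower in ZnF1 mutants and Pmaip1 was higher in ZnF4 mutants. The anti-apoptotic genes Mcl1 and Bcl2 and the effectors Bax and Bak1 passed in no comparison.

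**Figure D1:**
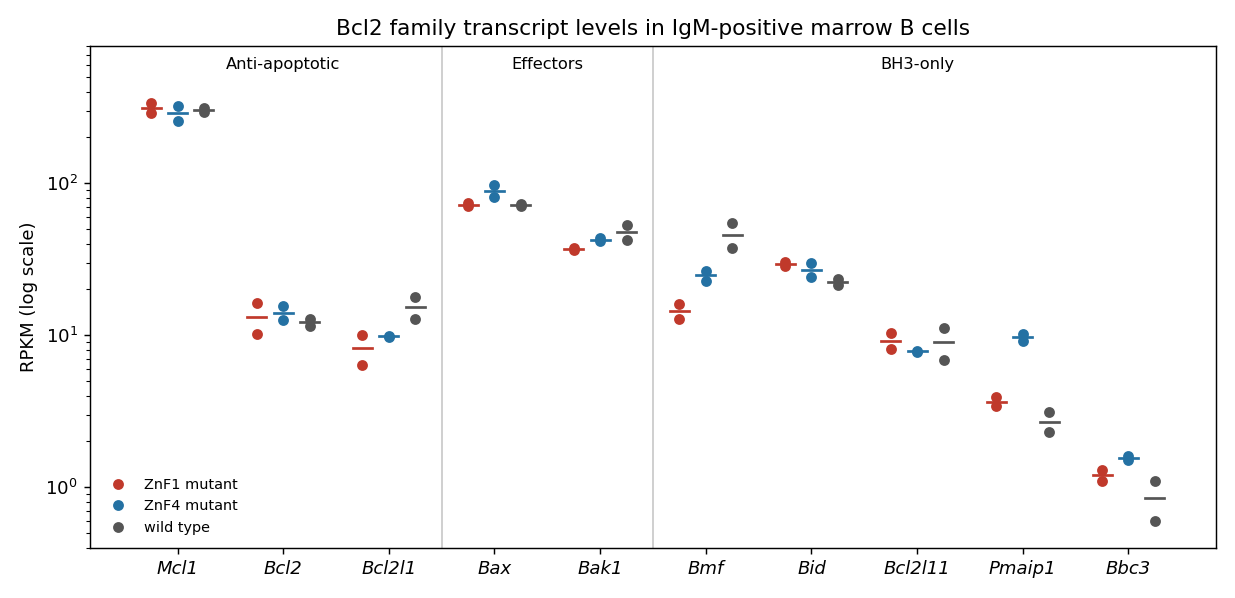
RPKM of the 10 members on a log axis, grouped by role; points are single libraries and short lines are means of 2 libraries of the ZnF1 mutant, the ZnF4 mutant and wild type. Mcl1 lies between 257.7 and 338.4 RPKM in all libraries, Bmf is highest in wild type, and Pmaip1 is highest in ZnF4 mutants.

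Among the anti-apoptotic genes, Mcl1, which B cells need for survival, was by far the most abundant member. Mcl1 was at 338.4 and 289.1 RPKM in ZnF1 mutants, 324.3 and 257.7 in ZnF4 mutants, and 312.1 and 293.2 in wild type. The genotypes overlapped, and Mcl1 ranked 72nd of the 10322 tested genes by mean level. Its difference was 0.05 in ZnF1 mutants (95% interval -0.36 to 0.46) and -0.07 in ZnF4 mutants (-0.47 to 0.34), and neither interval reaches 1 on the log2 scale in either direction. Mcl1 made up 93.7% and 93.5% of the summed anti-apoptotic RPKM in ZnF1 mutants, 93.5% and 91.0% in ZnF4 mutants, and 92.4% and 90.9% in wild type.

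Bcl2, the founding member of the family, was at 16.2 and 10.2 RPKM in ZnF1 mutants, 12.5 and 15.6 in ZnF4 mutants, and 12.8 and 11.5 in wild type. The ZnF1 libraries lay on either side of wild type. Its differences were 0.08 in ZnF1 mutants (95% interval -0.44 to 0.60) and 0.20 in ZnF4 mutants (-0.33 to 0.72). The table has a second Bcl2 transcript, shorter and with shared sequence, that had means of 9.90, 10.4 and 9.75 RPKM in ZnF1 mutants, ZnF4 mutants and wild type.

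Bcl2l1, which encodes Bcl-xL, was lower in each mutant library than in both wild-type libraries without passing the test. It was at 6.4 and 10 RPKM in ZnF1 mutants, 9.9 and 9.8 in ZnF4 mutants, and 12.8 and 17.8 in wild type. The difference was -0.87 in ZnF1 mutants (SE 0.23, adjusted p = 0.212) and -0.59 in ZnF4 mutants (SE 0.23, adjusted p = 0.247). Both comparisons use the same wild-type libraries. Bcl2l1 stood at 0.395 and 0.980 times the level of Bcl2 in ZnF1 mutants, 0.792 and 0.628 times in ZnF4 mutants, and 1 and 1.55 times in wild type.

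The effectors Bax and Bak1, either of which can open the outer mitochondrial membrane, were the next most abundant members. Bax was at 74.0 and 70.7 RPKM in ZnF1 mutants, 80.7 and 97.5 in ZnF4 mutants, and 71.1 and 73.3 in wild type. The ZnF4 libraries lay above wild type, with a difference of 0.30 that did not pass (95% interval -0.01 to 0.61, adjusted p = 0.309). In the ZnF1 mutant the interval for Bax was -0.31 to 0.31.

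Bak1, which Mcl1 and Bcl2l1 proteins are known to restrain, was at 37.6 and 36.1 RPKM in ZnF1 mutants, 41.4 and 43.6 in ZnF4 mutants, and 42.6 and 53 in wild type. Both ZnF1 libraries lay below wild type and the ZnF4 libraries overlapped it. The difference of -0.36 in ZnF1 mutants did not pass (SE 0.14, adjusted p = 0.358). The ratio of Bax to Bak1 was 1.97 and 1.96 in ZnF1 mutants, 1.95 and 2.24 in ZnF4 mutants, and 1.67 and 1.38 in wild type.

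Bmf, a BH3-only gene whose protein is held at the cytoskeleton through a dynein light chain and limits B cell numbers in mice, was the member with the largest drop in ZnF1 mutants. Its transcript NM_138313 was at 16.1 and 12.8 RPKM in ZnF1 mutants, 26.6 and 22.8 in ZnF4 mutants, and 54.4 and 37.3 in wild type. The genotypes did not overlap, with the ZnF1 libraries lowest, the ZnF4 libraries between and wild type highest. Of its 3 promoter windows, 2 are printed above.

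Bmf fell by 1.62 on the log2 scale in ZnF1 mutants (SE 0.20, limma adjusted p = 0.0347), to 0.326 of the wild-type level. It was the 1 of 10 members called in that comparison, where 0.271% of all tested genes were called, 0.0969% higher and 0.174% lower. In the ZnF4 mutant its difference was -0.86 (SE 0.20, adjusted p = 0.0805), which did not pass; it passed with ZnF1 replicate 1 (0.0470) or ZnF1 replicate 2 (0.0462) left out of the fit, with the compared genotypes alone (0.0458) and with a replicate block (0.0254). The mutants compared directly differed by -0.76 (95% interval -1.24 to -0.28, adjusted p = 0.0858), so a difference between the mutants in Bmf was not shown, except with a replicate block (0.0285).

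The direction for Bmf held in all 15 alternative fits of the ZnF1 comparison, but the call held in 5, with adjusted p-values from 0.00532 to 0.235. Leaving out 1 library gave -1.35 without wild-type replicate 1 (adjusted p = 0.208), -1.89 without wild-type replicate 2 (0.156), -1.78 when ZnF1 replicate 1 was dropped (0.00532) and -1.46 when ZnF1 replicate 2 was (0.0972); leaving out either ZnF4 library keeps the -1.62 and gave adjusted p-values of 0.232 and 0.229. The granulocyte and monocyte marker sums, given above, were higher in both ZnF1 libraries than in both wild-type libraries, and highest in ZnF1 replicate 2. With a term for sex the difference was -1.48 and the adjusted p 0.126. The plasma cell marker sum was highest in wild-type replicate 1. Of the 6 markers, both ZnF1 libraries lay below both wild-type libraries for 2, Sdc1 and Irf4. Sdc1 was at 5.3 and 3.3 RPKM in wild type, where ZnF1 mutants had 0.6 and 0.4. In wild-type replicate 2, Prdm1, Xbp1, Igj and Tnfrsf17 lay below both ZnF1 libraries. The part of granulocyte and plasma cell RNA in this result was not tested.

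Pmaip1, which encodes Noxa, a BH3-only protein that binds Mcl1 and is known as a p53 target, was at 3.9 and 3.4 RPKM in ZnF1 mutants, 9.2 and 10.2 in ZnF4 mutants, and 3.1 and 2.3 in wild type (transcript NM_021451). The ZnF4 libraries stood clear of the other 4, and the ZnF1 libraries lay just above wild type. Pmaip1 rose by 1.68 on the log2 scale in ZnF4 mutants (SE 0.19, limma adjusted p = 0.00658), a 3.21-fold change on that scale. It was the 1 of 10 members called there, against 3.2% of all tested genes called, 1.78% higher and 1.41% lower.

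The rise in Pmaip1 differed between the mutants by the direct test. The difference of the ZnF1 from the ZnF4 mutant was -1.30 (SE 0.19, adjusted p = 0.0122), again the 1 member of 10 called, against 4.78% of all tested genes called, 2.08% higher and 2.69% lower. The ZnF1 mutant itself differed from wild type by 0.38 (95% interval -0.06 to 0.82, adjusted p = 0.494). In the ZnF4 comparison the call held in 11 of 15 alternative fits, with adjusted p-values from 0.00337 to 0.129. It was lost in the fits that leave out a library of the comparison, which gave 1.86 without wild-type replicate 1 (adjusted p = 0.0589), 1.5 without wild-type replicate 2 (0.0693), 1.75 without ZnF4 replicate 1 (0.123) and 1.61 without ZnF4 replicate 2 (0.129). The direct difference was likewise not called without ZnF4 replicate 1 (-1.37, adjusted p = 0.131) or ZnF4 replicate 2 (-1.23, 0.147), nor without the filter on low values (0.0509), and its adjusted p-values over all alternatives ran from 0.0116 to 0.147. The summed pro-B and pre-B cell markers, given above, were also highest in the ZnF4 libraries, mostly through Igll1. Both ZnF4 libraries lay below both wild-type libraries for 4 of the 8 markers and above them for 3. The part of pro-B and pre-B cell RNA in the level of Pmaip1 was not tested.

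Bbc3, which encodes Puma, the other BH3-only protein known as a p53 target, was the least abundant member. It was at 1.1 and 1.3 RPKM in ZnF1 mutants, 1.5 and 1.6 in ZnF4 mutants, and 1.1 and 0.6 in wild type. The ZnF4 libraries lay above wild type, and the difference of 0.63 did not pass (SE 0.28, adjusted p = 0.312). Values are given in steps of 0.1 RPKM, which is coarse at this level.

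Bid, the BH3-only protein that caspase-8 cleaves and that links death receptors to mitochondria, was at 28.6 and 30.2 RPKM in ZnF1 mutants, 24.1 and 29.9 in ZnF4 mutants, and 23.3 and 21.4 in wild type. The mutant libraries lay above wild type. The differences of 0.39 in ZnF1 mutants (SE 0.14, adjusted p = 0.334) and 0.26 in ZnF4 mutants (SE 0.14, adjusted p = 0.390) did not pass.

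Bcl2l11, which encodes Bim, a BH3-only protein needed to delete autoreactive B cells in mice, was at 10.3 and 8.1 RPKM in ZnF1 mutants, 7.9 and 7.8 in ZnF4 mutants, and 11.1 and 6.9 in wild type. The wild-type libraries spanned both mutants. Its differences were 0.06 in ZnF1 mutants (95% interval -0.48 to 0.59) and -0.15 in ZnF4 mutants (-0.68 to 0.38). A pair of further Bcl2l11 transcripts in the table stayed at or below 0.5 RPKM in every library. They have 5041 and 4874 bases, beside 4783 for the transcript used. How reads shared between transcripts were assigned was not examined, so these values need not be isoform levels.

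**Figure D2:**
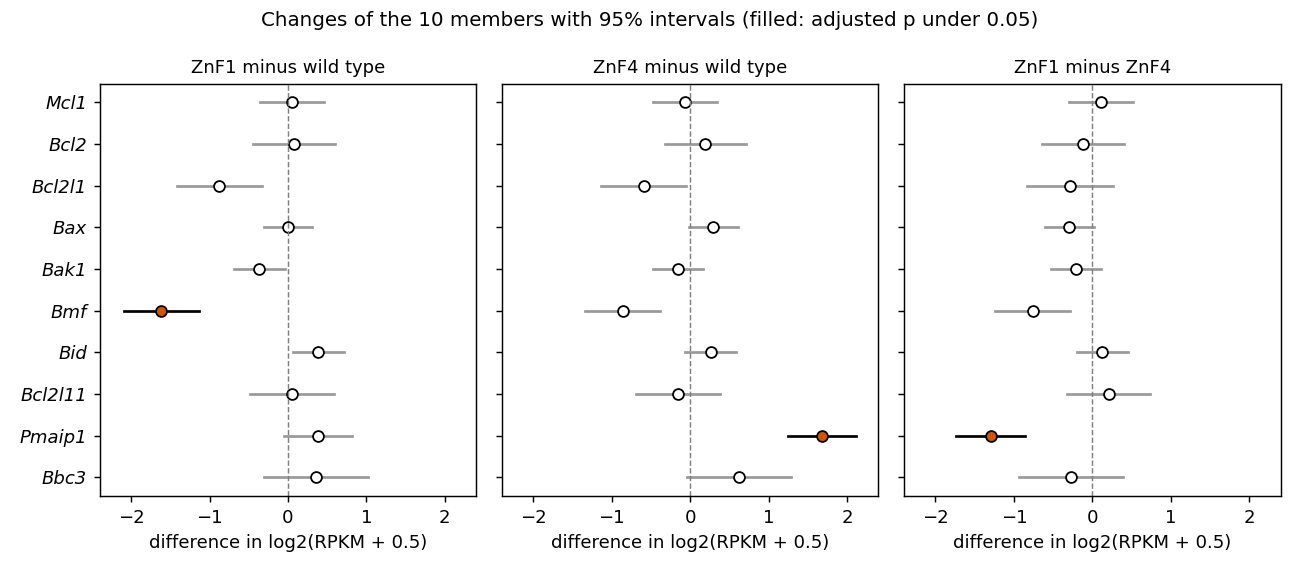
Difference in log2(RPKM + 0.5) for each member in the 3 comparisons, with 95% intervals from the moderated fit; filled points passed an adjusted p of 0.05. Filled are Bmf in ZnF1 mutants against wild type (-1.62), Pmaip1 in ZnF4 mutants against wild type (1.68) and Pmaip1 in the direct comparison (-1.30).

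Across the 10 members, the median difference was 0.05 in ZnF1 mutants, 0.07 in ZnF4 mutants and -0.24 between the mutants, beside medians of -0.0019, -0.02 and 0.03 over all tested genes. Libraries of the ZnF1 mutant and wild type did not overlap for 5 of the 10 members, 2 higher and 3 lower, against 41.5% of all tested genes (21.1% higher and 20.3% lower). For the ZnF4 mutant and wild type it was 6 of 10, 4 higher and 2 lower, against 50.4% (23.1% higher and 27.2% lower). For the ZnF1 and the ZnF4 mutant it was 6 of 10, 1 higher and 5 lower, against 46.8% (25.8% higher and 21% lower). The total counts are near the background. An unadjusted p under 0.05 was found for 4 members in ZnF1 mutants (Bmf, Bcl2l1, Bid and Bak1), where 11.9% of all tested genes had one, for 3 in ZnF4 mutants (Pmaip1, Bmf and Bcl2l1), where 17.4% had one, and for 2 between the mutants (Pmaip1 and Bmf), where 20.0% had one.

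The order of the levels differed for a few members. Mcl1, Bax and Bak1 came first in each genotype and Bbc3 last. In wild type, Bmf came 4th with 45.9 ± 12.1 RPKM (SD, n = 2), overlapped Bak1 and lay above Bid (22.4 ± 1.34). In the ZnF1 mutant Bmf came 5th with 14.5 ± 2.33 RPKM, below Bid (29.4 ± 1.13) and overlapping Bcl2 (13.2 ± 4.24). In the ZnF4 mutant Bmf (24.7 ± 2.69) overlapped Bid (27.0 ± 4.10). Pmaip1 was 9th in ZnF1 mutants (3.65 ± 0.354) and in wild type (2.70 ± 0.566), where Bcl2l11 lay above it. In the ZnF4 mutant it was 8th (9.70 ± 0.707), overlapped Bcl2l1 (9.85 ± 0.0707) and lay above Bcl2l11 (7.85 ± 0.0707).

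The makeup of the BH3-only RNA was also set side by side, as a plain sum. The 5 BH3-only genes summed to 60 and 55.8 RPKM in ZnF1 mutants, 69.3 and 72.3 in ZnF4 mutants, and 93.0 and 68.5 in wild type. Bmf made up 26.8% and 22.9% of that sum in ZnF1 mutants, 38.4% and 31.5% in ZnF4 mutants, and 58.5% and 54.5% in wild type. Without Bmf the sum was 43.9 and 43.0 RPKM in ZnF1 mutants, 42.7 and 49.5 in ZnF4 mutants, and 38.6 and 31.2 in wild type. The mutants thus lay below wild type in Bmf and above it in the sum of the rest, which was mostly Bid. Not every gene of the rest lay above: Bcl2l11 overlapped wild type in both mutants, and Bbc3 did in the ZnF1 mutant.

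Pmaip1 made up 6.50% and 6.09% of the BH3-only sum in ZnF1 mutants, 13.3% and 14.1% in ZnF4 mutants, and 3.33% and 3.36% in wild type. The BH3-only sum was 0.166 and 0.180 times the anti-apoptotic sum in ZnF1 mutants, 0.200 and 0.255 times in ZnF4 mutants, and 0.275 and 0.212 times in wild type. The ZnF1 libraries had the lowest ratios and the ZnF4 libraries overlapped wild type. These sums rest on genes chosen with results known and were not tested.

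**Figure D3:**
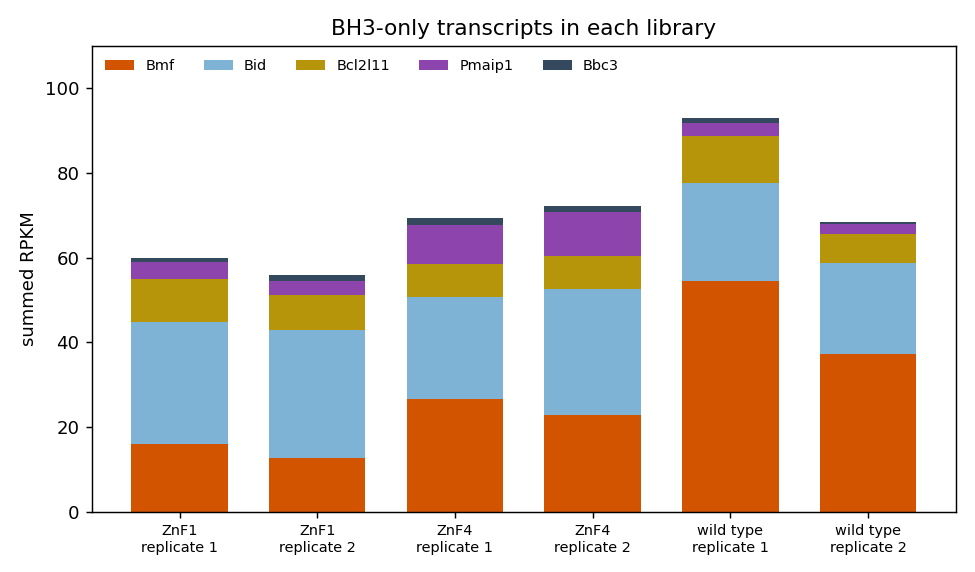
Stacked RPKM of the 5 BH3-only genes in each of the 6 libraries; each bar is 1 library. Bmf makes up 22.9% to 26.8% of the bars of the ZnF1 mutant, 31.5% to 38.4% in ZnF4 mutants and 54.5% to 58.5% in wild type, and the Pmaip1 segment is tallest in ZnF4 mutants.

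The genes most like Bmf across the 6 libraries, by Pearson's r of log2 values among 1807 other tested genes that spanned at least 1 on that scale, were Nrgn, Rapgef3 and Sdc1 (r = 0.997, 0.992 and 0.991). Sdc1, a plasma cell syndecan, was at 0.6 and 0.4 RPKM in ZnF1 mutants, 1.6 and 1.7 in ZnF4 mutants, and 5.3 and 3.3 in wild type. Those most like Pmaip1 were Nab1, Zfp109 and Arhgap5 (r = 0.985, 0.984 and 0.982). Nab1, which encodes a corepressor of Egr factors, was at 7.7 and 6.7 RPKM in ZnF1 mutants, 12.8 and 14.7 in ZnF4 mutants, and 7.2 and 6.4 in wild type. Rapgef3 (0.2 to 3.5 RPKM), Nrgn (1.7 to 5), Zfp109 (0.7 to 2.4) and Arhgap5 (0.5 to 3.1) were low, where steps of 0.1 RPKM are coarse. The points share libraries and genotypes, so these are descriptions.

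Other genes of the pathway were taken from 5 lists. In the ZnF1 mutant, none of 5 tested further Bcl2 family genes, 19 genes of the apoptosome, caspases and their inhibitors, 10 of the death receptor pathway, 12 of the p53 pathway and 30 survival inputs and regulators passed, where 0.271% of all tested genes did. An unadjusted p under 0.05 was found for 0, 0, 4, 4 and 5 of them in that order, beside 11.9% of all tested genes. The list medians were -0.02, -0.02, 0.32, 0.21 and -0.02, beside -0.0019 over all tested genes. The genes with the smallest p per list did not pass: Bcl2l2 (-0.21) and Bcl2l12 (-0.12), Birc5 (0.42), Traf1 (1.09) and Ripk1 (0.62), Gadd45a (0.49) and Trp53inp1 (-0.65), and Nfkb2 (0.82) and Tnfrsf13c (-0.46), with adjusted p-values from 0.0977 to 0.777. Nfkb2, an NF-kB subunit gene of the BAFF and CD40 pathway, was at 150.7 and 152.8 RPKM in ZnF1 mutants, 121.5 and 136.0 in ZnF4 mutants, and 76.8 and 95.3 in wild type.

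In the ZnF4 mutant, 1 death receptor gene rose, 1 p53 pathway gene fell and 2 survival inputs fell, where 3.2% of all tested genes were called. Traf1, an adaptor of tumour necrosis factor receptors, was at 8.8 and 15.6 RPKM in ZnF4 mutants and at 4.6 and 3.6 in wild type, a rise of 1.42 (limma adjusted p = 0.0356). Cdkn1a, the cell cycle inhibitor p21 and a known p53 target like Pmaip1, was at 1.2 and 1.6 RPKM in ZnF4 mutants and at 4.7 and 6.1 in wild type, and fell by 1.63 (adjusted p = 0.00909). Pmaip1 and Cdkn1a moved in opposite directions in ZnF4 mutants. Of the 12 tested genes of the p53 pathway list, 6 had a positive and 6 a negative difference there. A part of p53 in these changes was not tested. Tnfrsf13c, the receptor for the survival factor BAFF, was at 243.1 and 236.4 RPKM in ZnF4 mutants and at 418.2 and 433.7 in wild type, and fell by 0.83 (adjusted p = 0.0358). Foxo1, a forkhead transcription factor, was at 47.8 and 39.5 RPKM in ZnF4 mutants and at 79.7 and 72.3 in wild type, and fell by 0.80 (adjusted p = 0.0492).

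None of these 4 was called when any one wild-type or ZnF4 library was left out, with differences of 1.02 to 1.82 for Traf1 (adjusted p from 0.106 to 0.246), -1.80 to -1.46 for Cdkn1a (0.0669 to 0.123), -0.85 to -0.80 for Tnfrsf13c (0.179 to 0.247) and -0.93 to -0.66 for Foxo1 (0.172 to 0.328). Over all 15 alternatives the call held in 8 for Traf1, 11 for Cdkn1a, 8 for Tnfrsf13c and 6 for Foxo1. Besides the fits without a library, Traf1 lost its call with a term for sex (adjusted p = 0.104), without the filter on low values (0.111) and without a trend (0.0524). Tnfrsf13c lost its call with a term for sex (0.139), without the filter (0.0757) and with a replicate block (0.0624). Foxo1 lost its call with a term for sex (0.0987), without the filter (0.109), with quantile normalization (0.0856), without a trend (0.0844) and with a pseudocount of 1 (0.0510). Cdkn1a kept its call in the 9 alternatives that leave out no library. The other lists had no call in ZnF4 mutants. Of 5 further Bcl2 family genes the smallest p belonged to Bcl2l2 (0.77, adjusted p = 0.0942) and Bad (-0.30, 0.406), and of the 19 apoptosome and caspase genes to Vdac1 (-0.37, 0.151) and Birc5 (-0.52, 0.232). The list medians, in the order given for the ZnF1 mutant, were -0.10, -0.03, 0.22, 0.0022 and -0.12, beside -0.02 over all tested genes. In that order, 1, 3, 1, 3 and 7 genes had an unadjusted p under 0.05, beside 17.4% of all tested genes.

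Between the mutants, 3 pathway genes passed, where 4.78% of all tested genes were called. Bcl2l2, which encodes the anti-apoptotic Bcl-w, was at 1.9 and 2.2 RPKM in ZnF1 mutants and at 4.1 and 5.0 in ZnF4 mutants, a fall of 0.98 (limma adjusted p = 0.0341). Birc5, which encodes survivin, an inhibitor of apoptosis protein that also serves cell division, was at 8.2 and 12.0 RPKM in ZnF1 mutants and at 5.1 and 4.8 in ZnF4 mutants, higher by 0.94 (adjusted p = 0.0400). Cdkn1a was at 5.1 RPKM in both ZnF1 libraries, higher than in ZnF4 mutants by 1.57 (adjusted p = 0.00827). The call for Bcl2l2 was lost without any one of the 6 libraries (-1.11 to -0.85, adjusted p from 0.0525 to 0.217), and that for Birc5 without any but ZnF1 replicate 1 (0.68 to 1.20, adjusted p from 0.0103 to 0.242). Both held in 7 of 15 alternatives: Bcl2l2 was also not called without the filter (adjusted p = 0.0663) or with the compared genotypes alone (0.0803), and Birc5 not without the filter (0.0968), without a trend (0.0549) or with the compared genotypes alone (0.0987). The call for Cdkn1a was lost without ZnF4 replicate 1 (1.42, adjusted p = 0.119) and without ZnF4 replicate 2 (1.72, 0.0808).

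The death receptor genes with the smallest p between the mutants, Ripk1 (0.48, adjusted p = 0.128) and Fas (-0.52, 0.261), did not pass, nor did the survival inputs Il7r (-0.83, 0.0953) and Tnfrsf13b (-0.68, 0.0986). The list medians between the mutants were 0.07, 0.06, 0.17, 0.18 and 0.13 in the same order, beside 0.03 over all tested genes. An unadjusted p under 0.05 was found for 1, 2, 1, 4 and 8 of them, beside 20.0% of all tested genes.

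**Figure D4:**
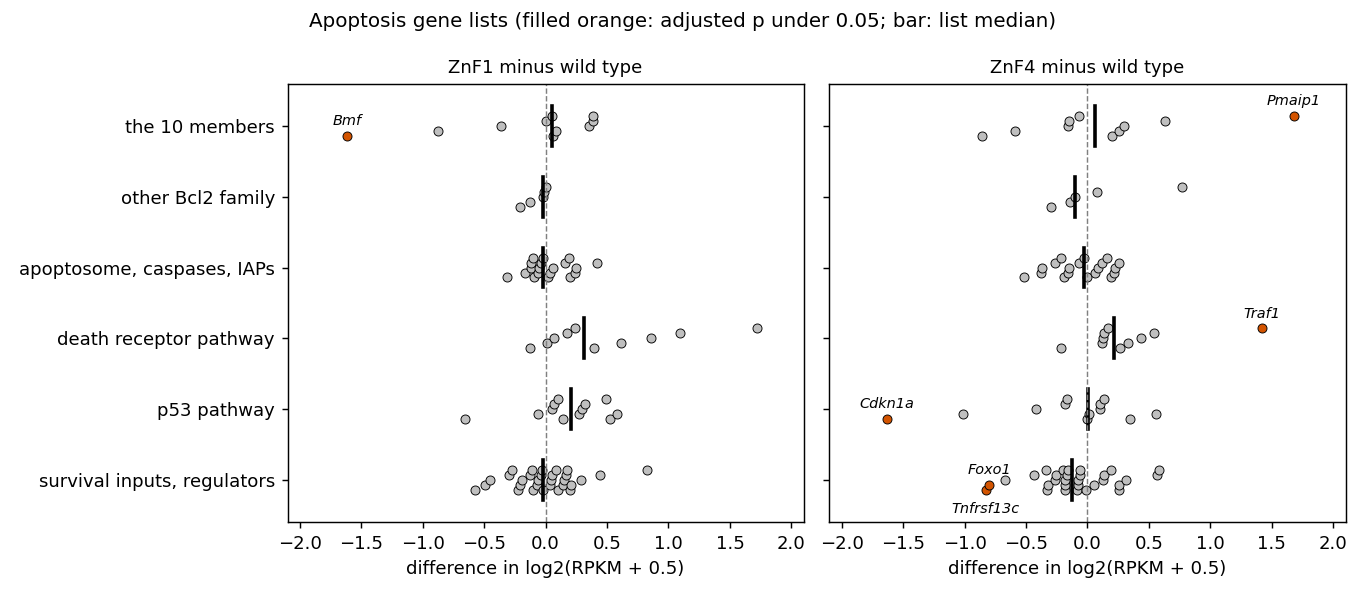
Difference in log2(RPKM + 0.5) of each tested gene of the members and of the 5 other lists, for the ZnF1 and the ZnF4 mutant against the same wild-type libraries; vertical bars are list medians, orange points passed an adjusted p of 0.05, and height within a row has no meaning. Named genes passed: Bmf in ZnF1 mutants, and Pmaip1, Traf1, Cdkn1a, Tnfrsf13c and Foxo1 in ZnF4 mutants.

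Of the 16 further Bcl2 family genes, 11 had a mean under 1 RPKM and were not tested. Of these, 10 stayed at or below 0.5 RPKM in every library, among them Hrk, Bik, Bok and the Bcl2a1 copies, whose near-identical sequences make read assignment uncertain. Bcl2l14 was at 0.4 and 0.3 RPKM in ZnF1 mutants, 1.6 and 2.2 in ZnF4 mutants, and 0.6 and 0.7 in wild type.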

How the data were processed

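Poly(A) RNA of 6 libraries was sequenced by the submitters. The authors deposited 1 table of RPKM per RefSeq transcript, rounded to 0.1 per the file's values; the submitters' processing notes list the mm9 build with TopHat and bedtools, no versions given, and which reads form the scaling total is not given in the sources used here. No source used here gives strand, so reads of antisense or overlapping genes may be mixed. Of 26532 rows, 26531 had values; the transcript with the highest mean stood for its gene. Values were used as deposited on the log2(RPKM + 0.5) scale and fitted with limma 3.58.1 in R 4.3.3 (1 coefficient per genotype, eBayes with an intensity trend, two-sided, Benjamini-Hochberg adjustment). The median log2 value of tested genes lay between 3.62 and 3.68. The fit was run on simulated data with independent normal noise. Those data held no sex difference and no outlying library, so the run cannot vouch for the calls made here. The 5 pathway lists are textbook lists. Of the 31 names in the survival list, Mule is another name of Huwe1. The members, lists and rules were chosen with earlier results of these data known. Named were all members, up to 4 called genes per list and comparison or else the 2 with the smallest p, and 3 most similar genes per called member; Bcl2l14 and the marker genes were named outside this rule, after their values were seen, and 1 gene that the rule names is not reported here. Alternatives were other pseudocounts, no filter, quantile normalization, summed transcripts, no trend, 2 genotypes only, a replicate block, a term for sex and leaving out each library.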

Additional observations from a re-analysis of the deposited data

How the results depend on the processing

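Of 30 member results, 20 kept their direction in all 15 alternatives. Outside leave-one-out, those that reversed lie near 0: Bax in the ZnF1 mutant was -0.049 with a term for sex, and Mcl1 in the ZnF4 mutant was 0.0090 with quantile normalization and 0.074 with a term for sex; Fas in the ZnF1 mutant was -0.085 and -0.14 under these alternatives. Called members in the ZnF1 mutant (1) became 0 without a filter, with quantile normalization, without a trend, with the 2 genotypes only and with a term for sex, and called genes (28) became 0, 13, 0 and 0 without a filter, with quantile normalization, with the 2 genotypes only and with a term for sex (limma; 1596, 1219, 1053 and 863 at an unadjusted p under 0.05). In the ZnF4 mutant 2 members, Bmf and Pmaip1, were called with the 2 genotypes only, and called genes (330) became 594 there, 189 without a filter and 171 with a term for sex. Between the mutants, members called became 0 without a filter, where 309 of the genes were called (493), and genes called became 249 with the 2 genotypes only. With a replicate block, 2 members were called in the ZnF4 mutant (Bmf, adjusted p = 0.0254, and Pmaip1) and 2 between the mutants (Bmf, 0.0285, and Pmaip1), and 1 in the ZnF1 mutant. The labels do not say what the replicate numbers stand for, and replicate 2 was male in both mutants by Xist and Ddx3y. Differences between replicates 1 and 2 correlated with r = 0.28 (ZnF1 and wild type), -0.03 (ZnF4 and wild type) and 0.21 (ZnF1 and ZnF4). Leaving out 1 library, members called ranged from 0 to 1, 0 to 2 and 0 to 1 in the ZnF1, ZnF4 and direct comparisons, and genes called from 0 to 512, 0 to 591 and 0 to 814, each highest without ZnF1 replicate 1; 0 was reached without either wild-type or either ZnF4 library, without either ZnF4 library and without ZnF4 replicate 1 in that order of comparisons. Leave-one-out ranges that crossed 0 were, in the ZnF1 mutant, Bcl2 -0.24 to 0.40, Mcl1 -0.065 to 0.16, Bcl2l11 -0.27 to 0.38, Bax -0.030 to 0.035, Cdkn1a -0.24 to 0.11, Bad -0.088 to 0.065, Vdac1 -0.045 to 0.084 and Fas -0.21 to 0.24. In the ZnF4 mutant they were Mcl1 -0.23 to 0.10, Bcl2l11 -0.47 to 0.17, Bcl2l12 -0.0052 to 0.17, Ripk1 -0.019 to 0.29, Il7r -0.082 to 0.59 and Tnfrsf13b -0.10 to 0.48. Between the mutants they were Bcl2 -0.44 to 0.21, Bcl2l1 -0.58 to 0.021, Mcl1 -0.052 to 0.28, Bid -0.024 to 0.28 and Traf1 -0.73 to 0.067. The causes of these changes were not tested. With 2 libraries a genotype and unknown depth, smaller changes may have been missed.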
